A study of Homo sapiens with 35 samples.

Results

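The effect of a double knockout of SUV39H1 and SUV39H2 was compared between U937 and THP-1, a pair of human acute myeloid leukaemia lines with monocytic features. The quantity described is a difference of differences: the change between double knockout (DKO) and control guide (sgControl) libraries in U937, minus the same change in THP-1. It rests on 12 of the 35 RNA-seq libraries of the series, chosen by their labels and not by a measured value: 3 untreated libraries each of U937 DKO, U937 sgControl, THP-1 DKO and THP-1 sgControl. A positive difference means that the change in DKO was more upward in U937 than in THP-1, whichever way each line moved. Every value is given with the 4 groups kept apart, since the same difference can come from a rise in U937, from a fall in THP-1 or from both.

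The SUV39H1 and SUV39H2 enzymes write H3K9me3, a histone methylation mark of constitutive heterochromatin, in which repeats and transposable elements are kept silent. Transcripts of released elements can be sensed as foreign nucleic acid, after which interferons act through the receptor-bound kinases JAK1 and TYK2 and transcription factors that include STAT2 and IRF9 to switch on interferon-stimulated genes. The question in the series title is whether H3K9me3 from these enzymes restricts such a response in acute myeloid leukaemia. The counts are per gene, so transposable elements themselves were not analysed here.

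Poly(A) RNA was sequenced from cells in serum-supplemented RPMI-1640, with a reducing agent added for THP-1 per the labels. Counted reads per library lay between 33421358 and 36764338 in U937 DKO, 35419849 and 42785519 in U937 sgControl, 31985767 and 38678090 in THP-1 DKO, and 51181859 and 60222776 in THP-1 sgControl. Whether the replicates were separate cultures is not stated, and the p-values cover only the scatter among the sequenced libraries, possibly technical. Library names give clone 3 for U937 DKO and clone 1 for THP-1 sgControl, so each of those groups may be repeats of 1 clone. The SUV39H1 guide had the same number in both lines, but the SUV39H2 guide was numbered 3 in U937 DKO and 1 in THP-1 DKO. Date-like codes in the names differed between THP-1 DKO and THP-1 sgControl, and stood in U937 sgControl but not in U937 DKO. Clone, code and knockout cannot be told apart within a line. The myeloid markers CD33, LYZ and FCER1G had at least 3273 reads over the libraries of each group, and TYROBP and CSF1R at least 489 and 566. The macrophage marker CD68 was near 0, with 14 reads over U937 DKO, 9 over U937 sgControl, 11 over THP-1 DKO and 48 over THP-1 sgControl, and the monocyte co-receptor gene CD14 was at 15 and 12 reads over the 3 libraries of U937 DKO and U937 sgControl, against 748 and 547 in THP-1 DKO and THP-1 sgControl. The B-cell marker MS4A1 had 0 reads in all 4 groups, and the epithelial marker EPCAM had at most 8.

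The targeted genes moved in the same direction in both lines but by different amounts. SUV39H1 (chromosome X, 48695554 to 48709016, forward strand) was at 81.5, 82.3 and 82.3 CPM in U937 DKO, 67.3, 68.0 and 61.6 in U937 sgControl, 57.0, 56.0 and 56.2 in THP-1 DKO and 35.7, 36.3 and 31.6 in THP-1 sgControl. CPM are counts scaled to a common library size by trimmed mean of M-values. Its transcript was higher in DKO in both lines, with no overlap between DKO and sgControl, and the log2 fold change was 0.32 ± 0.05 (SE) in U937 and 0.71 ± 0.05 in THP-1 (difference -0.39 ± 0.07, edgeR quasi-likelihood, Benjamini-Hochberg adjusted p = 2.2e-05). SUV39H2 (chromosome 10, 14878820 to 14904315, forward strand) was at 32.9, 34.5 and 29.97 CPM in U937 DKO, 40.2, 43.3 and 44.1 in U937 sgControl, 14.7, 14.1 and 13.4 in THP-1 DKO and 31.2, 30.1 and 32.3 in THP-1 sgControl. It was lower in DKO in both lines, by -0.39 ± 0.07 in U937 and -1.15 ± 0.07 in THP-1, and lies on a chromosome whose genes were lower as a whole in THP-1 DKO. An edit that leaves a transcript of near-normal length is not seen in gene counts, and the groups are called by their labels.

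The effects of the double knockout differed between the lines at 10174 of 18715 tested genes (54.4%). Of these tested genes, 5565 (29.7%) had a higher effect in U937 and 4609 (24.6%) a lower one at an adjusted p under 0.05. A difference of at least 1 on the log2 scale was reached by 2140 genes (11.4%) upward and 2460 (13.1%) downward. Outside chromosomes 7 and 10, where 17075 genes were tested, 5009 (29.3%) were higher and 4167 (24.4%) lower. Among them, 1597 (9.35%) rose in U937 and fell in THP-1, and 902 (5.28%) fell in U937 and rose in THP-1. Both effects passed in the same direction without a called difference for 849 genes upward (4.97%) and 1170 downward (6.85%). Across 9887 of these genes at a mean log2 CPM of 2 or more, the U937 and THP-1 effects had a Pearson correlation of 0.115 and a Spearman correlation of 0.229, a description over genes that all share the same 12 libraries.

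**Figure D1:**
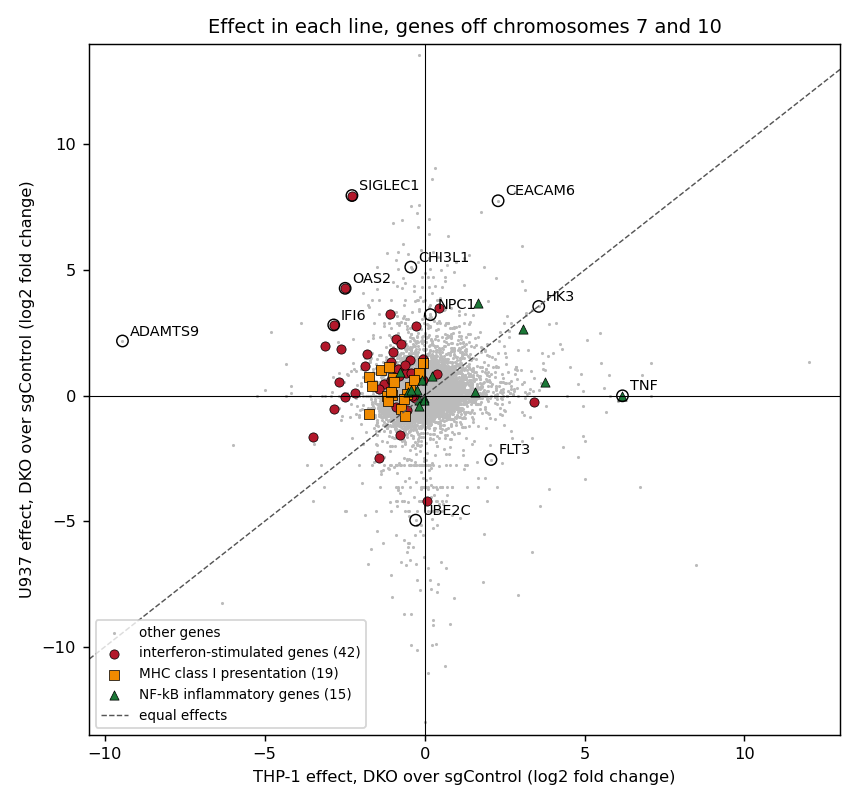
Log2 fold change of DKO over sgControl in THP-1 (x axis) and in U937 (y axis) for genes outside chromosomes 7, 10 and Y and at a mean log2 CPM of 2 or more, with interferon-stimulated, MHC class I and NF-kB inflammatory genes in colour and the dashed line marking equal effects. Most interferon-stimulated genes lie in the upper left, higher in U937 DKO and lower in THP-1 DKO, while TNF lies far to the right at a U937 effect near 0.

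Interferon-stimulated genes, whose products bind or degrade viral RNA and block viral entry, mostly moved in opposite directions in the lines. Of 61 members, all tested, 47 were higher and 4 lower in the difference, with a median of 1.86 on the log2 scale, against a median of -0.01 and the 29.7% and 24.6% over all genes. In U937, 39 rose and 10 fell (median 0.89), where 26.9% of all genes rose and 27.9% fell. In THP-1, 3 rose and 49 fell (median -0.99), where 29.8% of all genes rose and 35.1% fell. The same shares over all genes apply to the counts of each list below. For 34 members both effects passed, upward in U937 and downward in THP-1. With the difference also called, 7 members passed in THP-1 alone and 4 in U937 alone. MX1 and MX2, named after their values were seen, did not follow the opposed pattern. MX1 did not pass in U937 (-0.06 ± 0.22), and MX2 fell in both lines, by -0.53 ± 0.04 in U937 and -2.84 ± 0.055 in THP-1. The 54 members outside chromosomes 7 and 10 had 40 higher and 4 lower, with a median of 1.80. In bulk RNA, fewer cells with high expression and less RNA per cell cannot be told apart.

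A recognition motif of this gene class is shown in its promoters, since many members hold it and the rule for the comparison did not use it. The windows printed are those next in size of difference after SIGLEC1 and OAS2, among members outside chromosomes 7 and 10. The promoter set used held no window for SIGLEC1 and OAS2. The motif searched was GAAANNGAAA on both strands, the core of the element bound by interferon regulatory factors such as IRF9, and matches are in capitals. The windows run from 250 bases before to 50 after the gene start (RefSeq, GRCh38.p14), read along the gene's strand. RTP4, which encodes a receptor transport protein, starts on chromosome 3 (window chr3:187368135-187368434, forward). IFI6, which encodes a mitochondrial and endoplasmic reticulum protein that limits flavivirus replication, is on chromosome 1 (chr1:27672143-27672442, reverse). IFITM1, which encodes a membrane protein that blocks viral entry, is on chromosome 11 (chr11:313790-314089, forward).
RTP4: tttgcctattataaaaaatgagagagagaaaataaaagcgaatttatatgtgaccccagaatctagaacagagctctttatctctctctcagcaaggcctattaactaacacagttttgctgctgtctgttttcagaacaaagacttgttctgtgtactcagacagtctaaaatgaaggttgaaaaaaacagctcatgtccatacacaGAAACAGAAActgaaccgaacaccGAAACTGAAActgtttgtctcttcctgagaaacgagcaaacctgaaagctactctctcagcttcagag
IFI6: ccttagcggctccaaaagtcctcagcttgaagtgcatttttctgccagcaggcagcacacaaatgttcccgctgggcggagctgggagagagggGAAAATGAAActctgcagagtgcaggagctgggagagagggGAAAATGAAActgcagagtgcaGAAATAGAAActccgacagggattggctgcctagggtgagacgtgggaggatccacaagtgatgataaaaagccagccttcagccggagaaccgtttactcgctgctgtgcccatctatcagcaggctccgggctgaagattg
IFITM1: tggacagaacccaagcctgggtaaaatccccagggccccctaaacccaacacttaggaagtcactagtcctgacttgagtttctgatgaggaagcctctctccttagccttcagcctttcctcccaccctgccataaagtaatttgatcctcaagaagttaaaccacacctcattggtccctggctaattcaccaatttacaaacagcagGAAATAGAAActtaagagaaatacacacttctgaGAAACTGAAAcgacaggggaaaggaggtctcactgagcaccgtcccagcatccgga
The motif stood 2 times in the RTP4 window, 3 times in that of IFI6 and 2 times in that of IFITM1, with the first match 42, 156 and 40 bases before the gene start. Of 50 members with a window, 36 (72.0%) held the motif, against 492 of 12075 tested genes with a window (4.07%). Members that rose in U937 and fell in THP-1 held it in 20 of 28 (71.4%), and the remaining members in 16 of 22 (72.7%). Among all genes outside chromosomes 7 and 10 that rose in U937 and fell in THP-1, 70 of 1311 (5.34%) held it. A match is a description of the letters and not a bound site.

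SIGLEC1, an interferon-inducible sialic acid-binding receptor of macrophages on chromosome 20, had the largest difference of the list among members at a mean log2 CPM of 1 or more. It was at 61.8, 63.3 and 57.2 CPM in U937 DKO, 0.189, 0.396 and 0.113 in U937 sgControl, 8.61, 6.08 and 6.31 in THP-1 DKO and 34.4, 33.4 and 34.3 in THP-1 sgControl. U937 was thus the higher line among DKO libraries and the lower among sgControl libraries, and no groups overlapped. The U937 effect was 7.97 ± 0.17, the THP-1 effect -2.27 ± 0.10 and the difference 10.24 ± 0.20 (adjusted p = 2.9e-34).

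OAS2, an enzyme that makes the 2'-5' oligoadenylates that activate RNase L, was at 21.6, 23.4 and 22.5 CPM in U937 DKO, 0.849, 1.30 and 1.36 in U937 sgControl, 20.5, 21.3 and 25.1 in THP-1 DKO and 126, 123 and 125 in THP-1 sgControl. The sgControl libraries of the lines lay far apart, whereas the DKO libraries of the lines overlapped. The difference was 6.76 ± 0.14 (adjusted p = 1.0e-32), with effects of 4.27 ± 0.12 in U937 and -2.48 ± 0.08 in THP-1. IFI6 was at 90.4, 78.3 and 94.3 CPM in U937 DKO, 13.7, 9.84 and 14 in U937 sgControl, 23.2, 22.5 and 21.1 in THP-1 DKO and 180, 148 and 150 in THP-1 sgControl. Its effects were nearly equal in size and opposite, 2.82 ± 0.12 in U937 and -2.84 ± 0.11 in THP-1 (difference 5.66 ± 0.16, adjusted p = 1.9e-15). IFITM1 was at 4.30, 4.20 and 4.31 CPM in U937 DKO, 0.519, 0.280 and 0.763 in U937 sgControl, 1.80, 3.20 and 1.97 in THP-1 DKO and 12.3, 9.97 and 11.5 in THP-1 sgControl, with a difference of 5.35 ± 0.33 (adjusted p = 4.9e-18).

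The change was large enough to turn round the order of the lines at many members. Among DKO libraries, 34 of the 61 members had a higher mean level in U937 than in THP-1, against 10 of 61 among sgControl libraries. For 25 members U937 was above THP-1 in DKO and below it in sgControl, and for 1 the reverse. Over all tested genes, 44.0% were higher in U937 among DKO and 45.9% among sgControl libraries, and the order turned in the first way for 10.8% and in the reverse way for 12.7%.

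The 4 members that were lower in the difference were RTP4, XAF1, GBP2 and GBP5, of which all but RTP4 are named here after their values were seen. RTP4 was at 0 reads in U937 DKO, against 0.236, 0.140 and 0.283 CPM in U937 sgControl, at least 7.91-fold lower taking a floor of 3 reads over the group. In THP-1 it was at 6.65, 6.05 and 6.95 CPM in DKO and 7.5, 7.43 and 7.72 in sgControl, an effect of -0.20 ± 0.18 that did not pass (adjusted p = 0.32). The pro-apoptotic gene XAF1 had 0 reads in U937 DKO and averaged 0.0501 CPM in U937 sgControl, 13 in THP-1 DKO and 12.3 in THP-1 sgControl. Of the guanylate-binding protein genes, GBP2 did not pass in U937 (-0.25 ± 0.30) and rose by 3.41 ± 0.25 in THP-1. GBP5 fell in both, by -2.49 ± 0.17 in U937 and -1.44 ± 0.14 in THP-1. GBP1, GBP3 and GBP4, also named after their values were seen, had no called difference. In U937, GBP1 (-2.02 ± 0.58) and GBP4 (-1.57 ± 0.53) fell, at means of 0.149 and 0.129 CPM in DKO, and GBP3 did not pass. All 4 IFIT genes of the list, named after their values were seen, lie on chromosome 10. They had effects of 2.7 (IFIT1), 2.21 (IFIT2), 1.67 (IFIT3) and 2.13 (IFIT5) in U937. Their THP-1 effects, -3.04, -1.86, -1.85 and -2.45 in the same order, lay below the median of -0.95 that the genes of chromosome 10 had in that line.

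**Figure D2:**
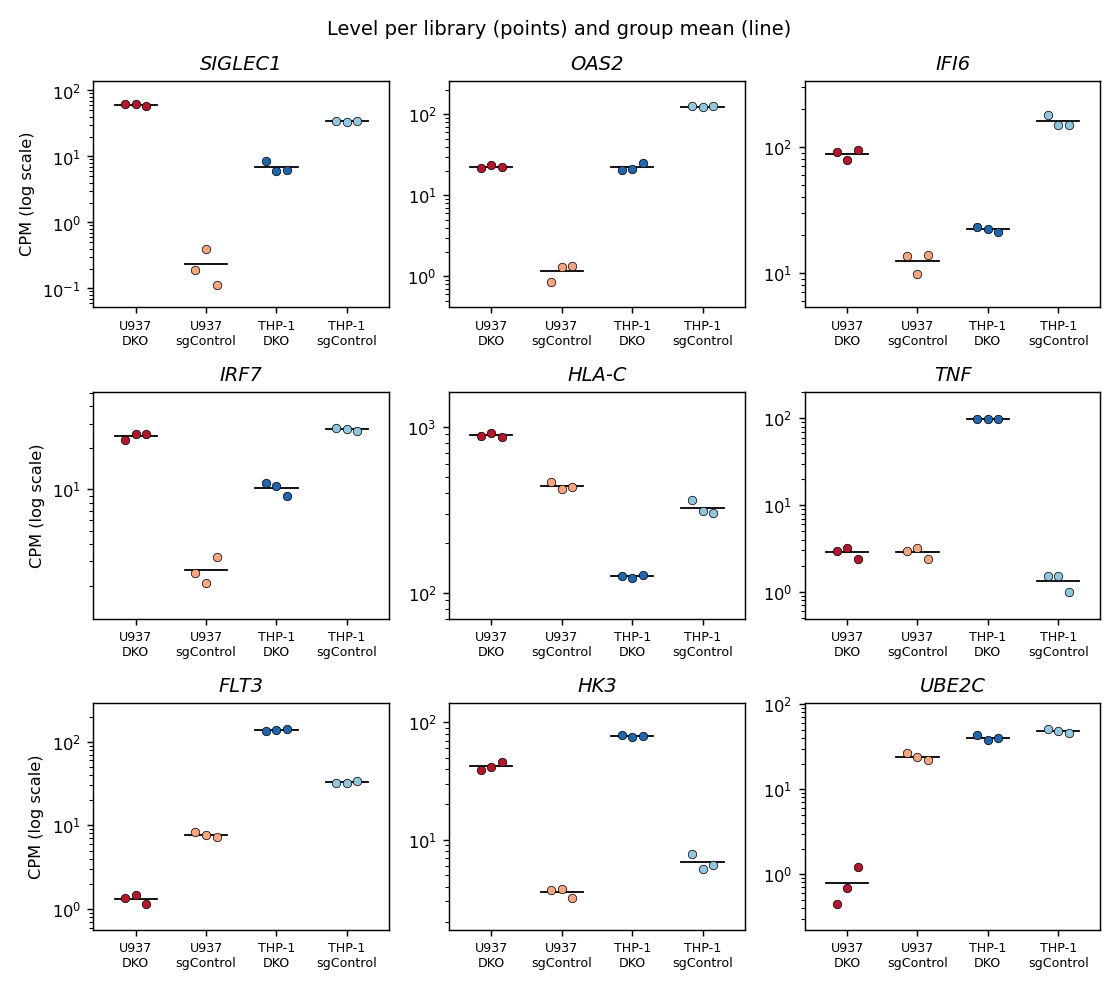
Level in CPM (log axis) of 9 named genes in each library, with a panel per gene, points for the 3 libraries of U937 DKO, U937 sgControl, THP-1 DKO and THP-1 sgControl and a line at each group's mean. SIGLEC1, OAS2, IFI6, IRF7 and HLA-C are higher in DKO in U937 and lower in DKO in THP-1, TNF is higher in DKO in THP-1 alone, FLT3 has the reverse pattern of IRF7, HK3 is higher in DKO in both lines, and UBE2C is lowest in U937 DKO.

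The signalling genes that stand above interferon-stimulated genes moved less uniformly. Of 21 tested interferon receptor and JAK-STAT genes, 14 were higher and 2 lower in the difference (median 0.70); 16 rose and 0 fell in U937, while 10 rose and 5 fell in THP-1. Here and for the other lists with 0 members in a direction in these lines, edgeR's count at an unadjusted p under 0.05 and the count with DESeq2 were also 0. IRF7, the transcription factor that amplifies interferon production, was at 22.6, 25.1 and 25.2 CPM in U937 DKO, 2.45, 2.10 and 3.22 in U937 sgControl, 11.1, 10.7 and 8.89 in THP-1 DKO and 27.9, 27.4 and 26.4 in THP-1 sgControl. The difference was 4.66 ± 0.17 (adjusted p = 1.8e-25). No groups overlapped, and the level was lower in U937 sgControl than in THP-1 sgControl but higher in U937 DKO than in THP-1 DKO.

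STAT2, which acts with IRF9, rose in both lines, by 1.59 ± 0.07 in U937 and 0.40 ± 0.06 in THP-1. IRF9, named here after its values were seen, also rose in both, by 2.38 ± 0.49 and 1.58 ± 0.42, with no called difference (0.79 ± 0.64, adjusted p = 0.31) and at means of 1.19 CPM in U937 DKO, 0.228 in U937 sgControl, 1.72 in THP-1 DKO and 0.574 in THP-1 sgControl. The 2 lower genes, also named after their values were seen, were PTPN6, a phosphatase that dampens JAK-STAT signalling (-0.99 ± 0.05), and the repressor IRF2 (-1.06 ± 0.10), both of which rose in THP-1. The interferon genes were close to absent: 22 rows of type I, II and III interferons summed to 3 reads over U937 DKO, 0 over U937 sgControl, 14 over THP-1 DKO and 6 over THP-1 sgControl, and none passed the expression filter.

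Sensors of foreign nucleic acid had 12 of 22 tested members higher and 3 lower in the difference (median 0.21). DHX58 (LGP2), a regulator of the RNA sensors RIG-I and MDA5, was at 3.15, 3.44 and 3.6 CPM in U937 DKO and 0.731, 0.536 and 0.396 in U937 sgControl, whereas THP-1 DKO (6.30, 5.29 and 5.51) overlapped THP-1 sgControl (7.88, 7.6 and 6.17). Its difference was 2.93 ± 0.30 (adjusted p = 4.6e-11). SAMHD1, which depletes nucleotides that reverse transcription needs, rose by 1.19 ± 0.06 in U937 and fell by 0.44 on the log2 scale in THP-1. It nonetheless stayed far lower in U937 DKO, at a mean of 19 CPM, than in THP-1 DKO, at 584. The 3 lower members were CGAS (-0.35 ± 0.09), the cytosolic DNA sensor, the kinase gene IKBKE (-0.27 ± 0.09) and TRIM56 (-1.29 ± 0.07), an E3 ligase gene on chromosome 7, all named after their values were seen.

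Genes of MHC class I presentation, which cut, transport and display peptides to cytotoxic T cells, had 19 of 21 members higher and 1 lower in the difference (median 1.09). In U937, 11 rose and 5 fell (median 0.16), and in THP-1, 0 rose and 18 fell (median -0.98), so that the larger shift lay in THP-1. HLA-C was at 881, 915 and 870 CPM in U937 DKO, 462, 423 and 436 in U937 sgControl, 126, 124 and 127 in THP-1 DKO and 361, 313 and 304 in THP-1 sgControl. U937 was above THP-1 in sgControl already, and the gap was wider in DKO (difference 2.39 ± 0.07, adjusted p = 9.1e-23). PSMB9, an immunoproteasome subunit, was at 26.9, 22.6 and 26.4 CPM in U937 DKO, 14.6, 15.3 and 15.2 in U937 sgControl, 21.3, 20.7 and 20.0 in THP-1 DKO and 76.0, 68.0 and 63.8 in THP-1 sgControl (difference 2.49 ± 0.10).

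HLA-F, a non-classical class I gene, was at 0.619, 0.766 and 0.546 CPM in U937 DKO and 0.542, 0.746 and 0.509 in U937 sgControl, which overlapped. In THP-1 it was at 0.280, 0.820 and 0.357 in DKO and 16.4, 14.2 and 13.1 in sgControl, so the difference of 5.04 ± 0.40 came with a U937 effect of 0.10 ± 0.30 that did not pass. The lower member was TAP2 (-0.21 ± 0.09, adjusted p = 0.042), named after its values were seen, which lost the call in 8 of the 12 fits that left out 1 library. HLA genes have near-identical copies, so their reads are uncertain where the counting left out reads that map to several places.

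MHC class II presentation had 10 of 16 tested members higher and 0 lower by edgeR (median 1.29), with 11 rising and 3 falling in U937 and 5 rising and 6 falling in THP-1. Without U937 DKO replicate 2, 1 member was lower. HLA-DRA, the alpha chain of the HLA-DR heterodimer, was at 12.7, 13.4 and 13.1 CPM in U937 DKO, 0.141, 0.466 and 0.170 in U937 sgControl, 21.9, 23.8 and 21.1 in THP-1 DKO and 9.40, 7.88 and 8.18 in THP-1 sgControl. It rose in both lines, more in U937 (5.61 ± 0.20) than in THP-1 (1.39 ± 0.12). CIITA, the master activator of this class and named after its values were seen, rose to similar extents, 2.17 ± 0.24 and 2.45 ± 0.23 (difference -0.27 ± 0.34, adjusted p = 0.53).

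Ligands that T cells and natural killer cells read on a target had 13 of 24 tested members higher and 5 lower in the difference (median 0.86, or 0.76 with members at 0 reads in a group set at the floor). In U937, 15 rose and 0 fell, and in THP-1, 8 rose and 14 fell. CD276 (B7-H3) was at 39.7, 38.9 and 38.1 CPM in U937 DKO, 4.53, 5.20 and 4.30 in U937 sgControl, 113, 123 and 119 in THP-1 DKO and 185, 176 and 168 in THP-1 sgControl. THP-1 was the higher line in both conditions, with a smaller gap in DKO (difference 3.62 ± 0.09, adjusted p = 4.6e-32). CD70, a co-stimulatory ligand, followed the same pattern with a difference of 3.19 ± 0.11. TNFSF9 (4-1BB ligand) had a difference of 2.47 ± 0.15 and turned the order of the lines round, with means of 20.5 CPM in U937 DKO, 4.59 in U937 sgControl, 12.1 in THP-1 DKO and 14.9 in THP-1 sgControl. The 5 lower members, named after their values were seen, were TNFSF4, CD86, TNFSF10, MICA and TNFSF13B, which came to 3 without U937 sgControl replicate 1.

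NF-kB inflammatory genes went the other way. Of 27 tested, 13 were lower and 7 higher in the difference (median -0.80); 10 rose and 7 fell in U937 (median 0.00), and 15 rose and 6 fell in THP-1 (median 0.53). TNF, the cytokine that gives this response its usual readout, was at 2.98, 3.22 and 2.39 CPM in U937 DKO, 2.99, 3.19 and 2.40 in U937 sgControl, 97.7, 99.4 and 98.7 in THP-1 DKO and 1.52, 1.52 and 0.991 in THP-1 sgControl. The U937 groups overlapped, whereas THP-1 DKO stood far above the other 3 groups. The difference was -6.19 ± 0.20 (adjusted p = 1.6e-27), with a U937 effect of -0.01 ± 0.15 and a THP-1 effect of 6.18 ± 0.12.

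NFKBIZ, a nuclear cofactor of NF-kB, had an effect of -0.12 ± 0.27 in U937 that did not pass and rose by 3.14 ± 0.24 in THP-1. CCL2, a monocyte chemoattractant, rose in both lines, by 0.53 ± 0.08 in U937 and 3.76 ± 0.16 in THP-1, from sgControl levels that differed widely: it was at 49.7, 49.4 and 52.4 CPM in U937 DKO, 37.2, 35.3 and 31.9 in U937 sgControl, 10.7, 7.41 and 8.73 in THP-1 DKO and 0.439, 0.703 and 0.867 in THP-1 sgControl. CXCL8, named after its values were seen, rose by 2.66 ± 0.10 and 3.08 ± 0.11. Among the 7 higher members were NFKB1 (0.69 ± 0.07) and RELA (0.66 ± 0.08), subunits of NF-kB itself that rose in U937 and fell in THP-1, also named after their values were seen.

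Monocyte and macrophage genes had 25 of 51 tested members higher and 10 lower in the difference (median 0.83, or 0.91 at the floor). They rose far more than they fell in U937, 37 against 3 (median 1.47, or 1.38 at the floor), and 28 rose and 15 fell in THP-1 (median 0.18). LILRB4, an inhibitory receptor of monocytic cells, was at 1.15, 1.48 and 1.93 CPM in U937 DKO and 0 reads in U937 sgControl, at least 61.2-fold higher, against 187, 192 and 186 CPM in THP-1 DKO and 162, 149 and 139 in THP-1 sgControl. VCAN, a matrix proteoglycan made by monocytes, was at 0 reads in U937 DKO and 0.283, 0.676 and 0.509 CPM in U937 sgControl, at least 17.6-fold lower. In THP-1 the order was the reverse, 60.2, 67.8 and 65.1 CPM in DKO and 18.8, 17.2 and 18.2 in sgControl. ITGAM (CD11b), an integrin used as a marker of monocytic lines, rose by 5.03 ± 0.07 in U937, to a mean of 136 CPM in DKO against 4.18 in sgControl, and by 0.17 ± 0.05 in THP-1.

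Genes of granulocyte granules, made at the promyelocyte stage and later, had 9 of 19 tested members higher and 6 lower (median 1.12), with 12 rising and 6 falling in U937 and 9 rising and 5 falling in THP-1. CST7, a cystatin that controls granule proteases, was at 1457, 1474 and 1420 CPM in U937 DKO, 605, 557 and 553 in U937 sgControl, 11.7, 11.3 and 12.9 in THP-1 DKO and 0 reads in THP-1 sgControl. It was thus higher in DKO in both lines, at least 626-fold in THP-1. CHI3L1, a secreted chitinase-like protein, was at 433, 442 and 430 CPM in U937 DKO and 11.7, 12.7 and 13.2 in U937 sgControl, while THP-1 DKO had 3001, 2875 and 2894 and THP-1 sgControl 4155, 3897 and 3787. Its difference of 5.55 ± 0.06 (adjusted p = 1.7e-43) left U937 DKO still below both THP-1 groups. CEACAM6, an adhesion molecule of granulocytes, rose in both lines, by 7.76 ± 0.16 in U937 and 2.30 ± 0.09 in THP-1.

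Progenitor genes split evenly, with 7 of 22 tested members higher and 7 lower (31.8% each, against 29.7% and 24.6% of all genes). Their median was -0.32, or -0.03 at the floor, but the members of largest difference shared a direction. FLT3, a receptor tyrosine kinase of early progenitors, was at 1.35, 1.48 and 1.15 CPM in U937 DKO, 8.25, 7.64 and 7.35 in U937 sgControl, 135, 137 and 141 in THP-1 DKO and 32.2, 32.1 and 33.8 in THP-1 sgControl. It fell in U937 and rose in THP-1 (difference -4.62 ± 0.12, adjusted p = 2.4e-31). KIT, the stem cell factor receptor, had a difference of -3.99 ± 0.27 and ERG, a progenitor transcription factor, one of -2.75 ± 0.26, with the same signs in each line.

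Most proliferation genes fell in both lines. In U937, 0 of 40 rose and 38 fell (median -0.59), and in THP-1, 1 rose and 36 fell (median -0.66). The difference still passed for 14 members upward and 15 downward (median -0.03), and the number upward ranged from 9 to 17 when 1 library was left out. UBE2C, which feeds ubiquitin to the anaphase-promoting complex, was at 0.450, 0.687 and 1.21 CPM in U937 DKO, 26.7, 23.6 and 22.2 in U937 sgControl, 42.9, 37.4 and 39.5 in THP-1 DKO and 50.5, 48.7 and 46.3 in THP-1 sgControl. U937 DKO stood far below the other 3 groups (difference -4.68 ± 0.18, adjusted p = 1.2e-21). MCM3, a subunit of the replicative helicase, showed the reverse balance, with an effect of -0.11 ± 0.03 in U937 and -1.08 ± 0.03 in THP-1. The member that rose in THP-1 was CENPE, a mitotic kinesin (0.16 ± 0.06), whose THP-1 groups overlapped and which fell by 1.18 on the log2 scale in U937.

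Stress and unfolded protein response genes had 27 of 32 tested members higher and 4 lower in the difference (median 1.02). In U937, 14 rose and 12 fell (median 0.06), while in THP-1 3 rose and 25 fell (median -0.72), the larger shift as for MHC class I. SDF2L1, an endoplasmic reticulum chaperone component, was at 33.1, 29.3 and 31.6 CPM in U937 DKO, 31.1, 26.1 and 30.8 in U937 sgControl, 14.2, 11.1 and 12.7 in THP-1 DKO and 76.1, 56.8 and 70.8 in THP-1 sgControl. The U937 groups overlapped and the THP-1 groups did not (difference 2.51 ± 0.14, adjusted p = 9.8e-14). SLC7A11, the cystine transporter, rose by 0.57 ± 0.21 in U937 and fell by 1.53 on the log2 scale in THP-1. TRIB3, a pseudokinase induced by ATF4, had its difference of 1.91 ± 0.10 from U937, where it averaged 327 CPM in DKO and 89.7 in sgControl, against 37.6 in THP-1 DKO and 38.8 in THP-1 sgControl. The 4 lower members, named after their values were seen, were ATF4 (-0.66 ± 0.05), ERN1 (-0.62 ± 0.13), HSPA1A (-0.77 ± 0.11), which has a near-identical copy, and PSPH (-0.78 ± 0.10) on chromosome 7.

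**Figure D3:**
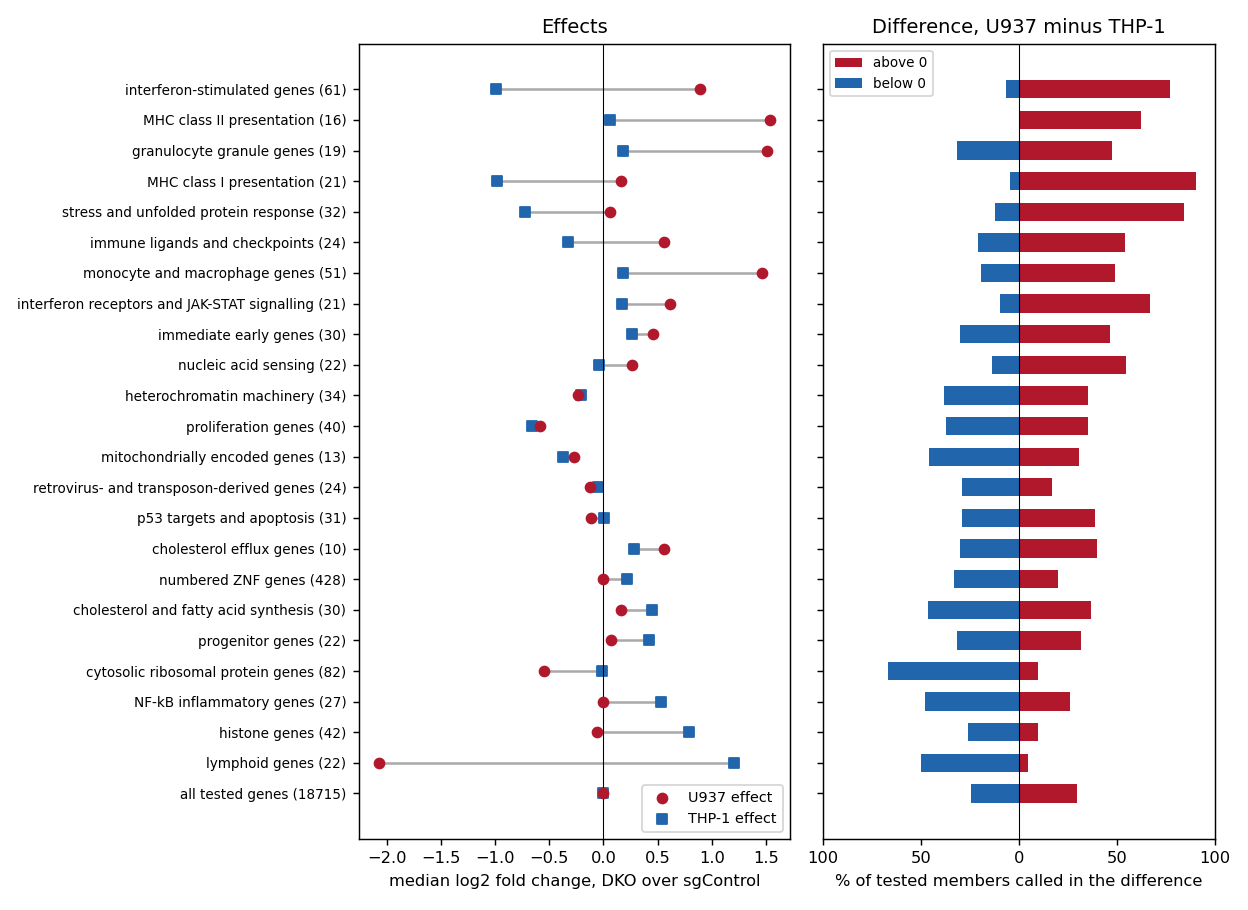
Gene lists in rows with, on the left, the median log2 fold change of DKO over sgControl in U937 and in THP-1 and, on the right, the percentage of tested members called above or below 0 in the difference, with all tested genes in the last row. Interferon-stimulated, MHC class I and stress genes have medians below 0 in THP-1 and differences mostly above 0, while NF-kB inflammatory and ribosomal protein genes have differences mostly below 0.

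Cholesterol and fatty acid synthesis genes had 11 of 30 tested members higher and 14 lower in the difference (median -0.24). They rose more often than they fell in each line, 16 against 10 in U937 and 19 against 8 in THP-1. LSS, lanosterol synthase, was at 130, 129 and 129 CPM in U937 DKO, 149, 145 and 154 in U937 sgControl, 72.6, 66.3 and 65.8 in THP-1 DKO and 37.5, 35.2 and 34.3 in THP-1 sgControl (difference -1.14 ± 0.07). Of 10 tested cholesterol efflux genes, 4 were higher and 3 lower (40% and 30%, against 29.7% and 24.6% of all genes). NPC1, which moves cholesterol out of lysosomes, was at 1055, 1090 and 1065 CPM in U937 DKO, 112, 117 and 115 in U937 sgControl, 38.3, 38.5 and 40.01 in THP-1 DKO and 38.6, 31.8 and 32.7 in THP-1 sgControl. U937 DKO stood apart from the other 3 groups, with a difference of 3.05 ± 0.07 (adjusted p = 1.8e-30).

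Immediate early genes, the first transcribed after a stimulus, had 14 of 30 tested members higher and 9 lower (median 0.30). These were 46.7% and 30%, against 29.7% and 24.6% of all genes. EGR1 fell by 1.74 on the log2 scale in U937 and rose by 0.78 ± 0.06 in THP-1, whereas EGR3, of the same family, rose in both, by 3.89 ± 0.19 in U937 and 0.47 ± 0.13 in THP-1. The p53 target and apoptosis list had 12 of 31 tested members higher and 9 lower (median -0.13), or 38.7% and 29% beside the same 29.7% and 24.6%. CDKN1A (p21), which halts cyclin-dependent kinases, was at 14.5, 13.3 and 14 CPM in U937 DKO, 4.95, 3.59 and 4.27 in U937 sgControl, 39.0, 42.1 and 42.6 in THP-1 DKO and 139, 125 and 120 in THP-1 sgControl. It rose in U937 and fell in THP-1 but was higher in THP-1 in both conditions (difference 3.34 ± 0.11, adjusted p = 1.8e-26). PHLDA3, another target of p53, fell in U937 to 0.197, 0 and 0.0575 CPM in DKO, against 3.32, 2.68 and 3.00 in sgControl, and did not pass in THP-1 (0.24 ± 0.21).

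Genes of the heterochromatin machinery were more often lower than higher in both lines, with 7 of 34 rising and 22 falling in U937 and 6 rising and 22 falling in THP-1. Its difference was balanced, 12 higher and 13 lower (median 0.04). DNMT3A, a DNA methyltransferase, was at 59.6, 58.1 and 56.1 CPM in U937 DKO, 28.7, 25.6 and 30.4 in U937 sgControl, 55.8, 57.9 and 58.9 in THP-1 DKO and 69.2, 68.1 and 65.8 in THP-1 sgControl (difference 1.27 ± 0.08). TET2, which oxidises methylcytosine, had a U937 effect of 0.00 ± 0.08 and rose by 0.93 ± 0.06 in THP-1. KDM3A, a demethylase of H3K9, rose in both lines, by 0.35 ± 0.05 in U937 and 1.23 ± 0.05 in THP-1. Among protein-coding genes derived from retroviruses and transposons, 4 of 24 tested were higher and 7 lower (median -0.09, or -0.20 at the floor), and among 428 numbered ZNF genes, many of which encode zinc finger repressors of transposable elements, 86 were higher and 142 lower (median -0.17, or -0.11 at the floor). The shares were 16.7% and 29.2% in the first list and 20.1% and 33.2% in the second. Over all genes they were 29.7% and 24.6%.

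Cytosolic ribosomal protein genes had 8 of 82 tested members higher and 55 lower in the difference (median -0.48, or -0.46 at the floor). They fell in U937, where 8 rose and 66 fell, and were balanced in THP-1, where 30 rose and 28 fell. Their summed level was 46160 to 48520 CPM in U937 DKO, 58740 to 64830 in U937 sgControl, 67000 to 67860 in THP-1 DKO and 63710 to 71950 in THP-1 sgControl, so that the U937 groups did not overlap and the THP-1 groups did. RPL38, a protein of the large subunit, was at 149, 160 and 148 CPM in U937 DKO, 382, 300 and 323 in U937 sgControl, 305, 300 and 292 in THP-1 DKO and 280, 247 and 249 in THP-1 sgControl (difference -1.35 ± 0.10). These genes have many near-identical pseudogenes, so their counts are uncertain. Histone genes, most of whose transcripts carry no poly(A) tail, had 4 of 42 tested members higher and 11 lower (median -0.97).

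Lymphoid genes, listed as markers of other cell types, had 1 of 22 tested members higher and 11 lower in the difference (median -2.51, or -2.68 at the floor). Their summed level over 25 genes was 320 to 352 CPM in U937 DKO, 370 to 407 in U937 sgControl, 26.6 to 30.8 in THP-1 DKO and 37.1 to 44.9 in THP-1 sgControl. NKG7, a granule protein of cytotoxic lymphocytes, was at 138, 155 and 142 CPM in U937 DKO and 169, 150 and 154 in U937 sgControl, which overlapped, against 18.1, 15.3 and 15.7 in THP-1 DKO and 3.67, 2.88 and 2.48 in THP-1 sgControl (difference -2.56 ± 0.11). The defining marker CD3E was at 0 in U937 DKO, a mean of 0.869 CPM in U937 sgControl, 0.0718 CPM in THP-1 DKO and 0 in THP-1 sgControl, and MS4A1 at 0 in each. Mitochondrially encoded transcripts summed to 43760 to 48500 CPM in U937 DKO, 52060 to 56650 in U937 sgControl, 39360 to 40290 in THP-1 DKO and 51500 to 52480 in THP-1 sgControl, lower in DKO in both lines. The part of these shifts in the differences of other genes was not tested.

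**Figure D4:**
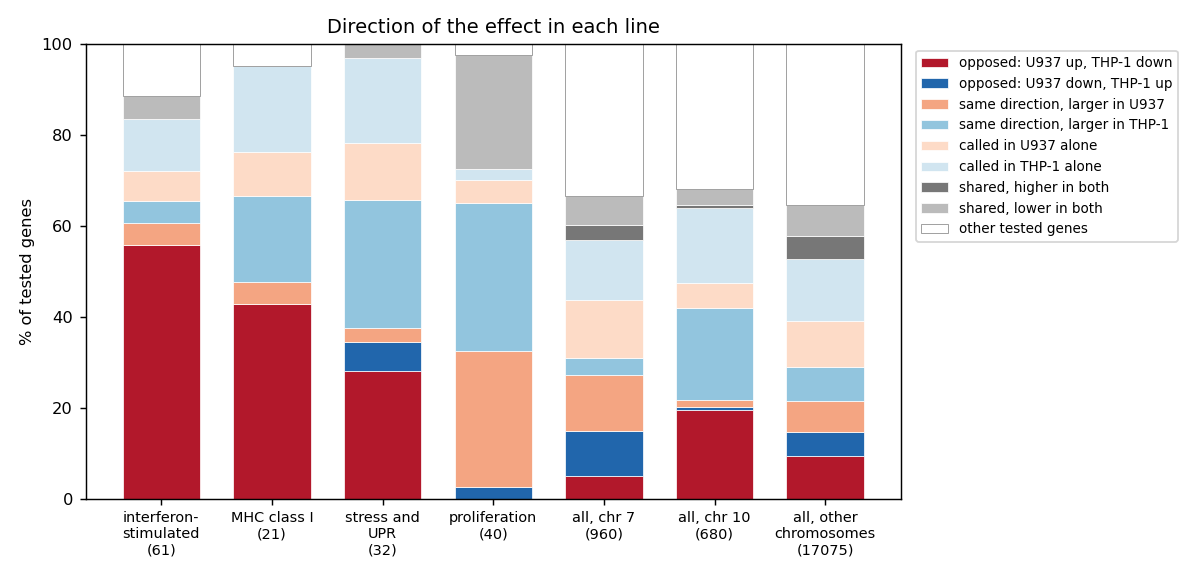
Percentage of tested genes in each class of direction for 4 gene lists, for chromosomes 7 and 10 and for all remaining chromosomes, with each bar summing to 100%. The class that rose in U937 and fell in THP-1 holds 34 of 61 interferon-stimulated genes and 9 of 21 MHC class I genes, against 9.35% of genes outside chromosomes 7 and 10.

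Outside the lists, the extremes of the difference were genes close to silent in 1 or more of the 4 groups. ADAMTS9, a secreted metalloprotease, was at 38.2, 41.4 and 41.2 CPM in U937 DKO, 9.08, 9.21 and 8.39 in U937 sgControl, 0.0933, 0 and 0.0511 in THP-1 DKO and 37.8, 34.9 and 40.3 in THP-1 sgControl. THP-1 DKO was thus nearly without reads while U937 DKO was at the level of THP-1 sgControl (difference 11.62 ± 0.22, adjusted p = 1.2e-35). DEFB1, an antimicrobial defensin, was at 30.2, 38.4 and 34.7 CPM in U937 DKO and 0 reads in U937 sgControl, at least 1390-fold higher, while THP-1 DKO (13.3, 13 and 11.8) and THP-1 sgControl (15.6, 14.3 and 12.7) overlapped.

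IMPACT, an inhibitor of the kinase GCN2, was at 0 reads in U937 DKO and 22.2, 23.2 and 24.1 CPM in U937 sgControl, at least 836-fold lower. Its THP-1 groups overlapped, at 62.9, 64.8 and 62.9 CPM in DKO and 59.3, 65.7 and 65.7 in sgControl (effect 0.00 ± 0.06). ONECUT2, a transcription factor, had 2 reads over U937 DKO and 4515 over U937 sgControl, a ratio of 1938 for sgControl over DKO with an exact 95% counting interval of 536 to 16010, and rose by 0.64 ± 0.08 in THP-1. Both lie on chromosome 18, as do APCDD1, at 0 reads in U937 DKO and at least 99.8-fold lower, and EPB41L3. SLC12A7, a potassium-chloride cotransporter on chromosome 5, was at 0 reads in U937 DKO and 0.259, 0.326 and 0.339 CPM in U937 sgControl, at least 11.1-fold lower. In THP-1 it was at 39.1, 40.2 and 38.8 CPM in DKO and 0.0731, 0.148 and 0.103 in sgControl.

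Among genes opposed in the direction reverse to the interferon-stimulated genes, EPB41L3, a membrane skeleton protein, was at 0.675, 0.317 and 0.719 CPM in U937 DKO, 42.1, 43.5 and 42.3 in U937 sgControl, 6.55, 7.64 and 8.07 in THP-1 DKO and 0.658, 0.666 and 0.867 in THP-1 sgControl. UNC5C, a netrin receptor, was at 2.02, 1.80 and 2.21 CPM in U937 DKO, 22, 26 and 31.5 in U937 sgControl, 9.77, 10.3 and 9.47 in THP-1 DKO and 0.695, 0.407 and 0.888 in THP-1 sgControl. In both genes U937 was the higher line in sgControl and the lower one in DKO. The differences were -9.58 ± 0.24 and -7.62 ± 0.22.

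Genes that moved alike in both lines give the contrast to these. HK3, the hexokinase of granulocytes and monocytes, was at 39.1, 41.8 and 46.4 CPM in U937 DKO, 3.73, 3.85 and 3.22 in U937 sgControl, 77.5, 75.4 and 76.5 in THP-1 DKO and 7.62, 5.60 and 6.09 in THP-1 sgControl. Its effects were 3.55 ± 0.09 and 3.57 ± 0.08 (difference -0.01 ± 0.13, adjusted p = 0.98). FCER2 (CD23), the low-affinity IgE receptor, was at 119, 123 and 119 CPM in U937 DKO, 13.7, 12.5 and 13 in U937 sgControl, 11.6, 11.7 and 10.8 in THP-1 DKO and 1.43, 0.740 and 1.65 in THP-1 sgControl (difference 0.03 ± 0.20, adjusted p = 0.95). The genes ranked first among those lower in both lines rested on at most 8 reads over U937 sgControl and are not described by value.

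Chromosomes 7 and 10 were treated apart because their genes shifted together. On chromosome 10, 398 of 680 tested genes were higher (58.5%) and 43 lower (6.32%) in the difference. Relative to all genes at a mean log2 CPM of 2 or more, the median difference of its 405 such genes was 0.96, with a median effect of -0.02 in U937 and -0.95 in THP-1. The THP-1 medians of its 20 Mb bins lay between -0.75 and -1.06, so the shift ran along the whole chromosome in THP-1. On chromosome 7, 158 of 960 genes were higher (16.5%) and 399 lower (41.6%), and the median difference of 528 genes was -0.46, with -0.39 in U937 and 0.05 in THP-1. Here the shift lay in U937 and in part of the chromosome: the U937 bin medians were -0.49 to -0.68 from 0 to 100 Mb, -0.14 from 100 to 120 Mb and 0.04 and 0.08 beyond.

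Other chromosomes had smaller medians as a whole, of which 0.34 on chromosome X and -0.27 on chromosome 18 were the largest in size, but single 20 Mb bins reached the size of those on chromosome 7. On chromosome X the median differences were 0.72, 0.63 and 0.82 in the bins from 100 to 160 Mb, with U937 medians of 0.39, 0.52 and 0.84. Elsewhere, bins past 0.5 in size were 0.68 at 40 to 60 Mb of chromosome 6 (U937 median 0.75), 0.54 at 0 to 20 Mb of chromosome 19 (U937 median 0.48) and -0.51 at 20 to 40 Mb of chromosome 18 (U937 median -0.72). What underlies these shifts was not tested, since the counts hold no DNA measurement. MCM3 lies in the chromosome 6 bin, CD70, TNFSF9 and FCER2 in the chromosome 19 bin, and IMPACT and NPC1 in the chromosome 18 bin.

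**Figure D5:**
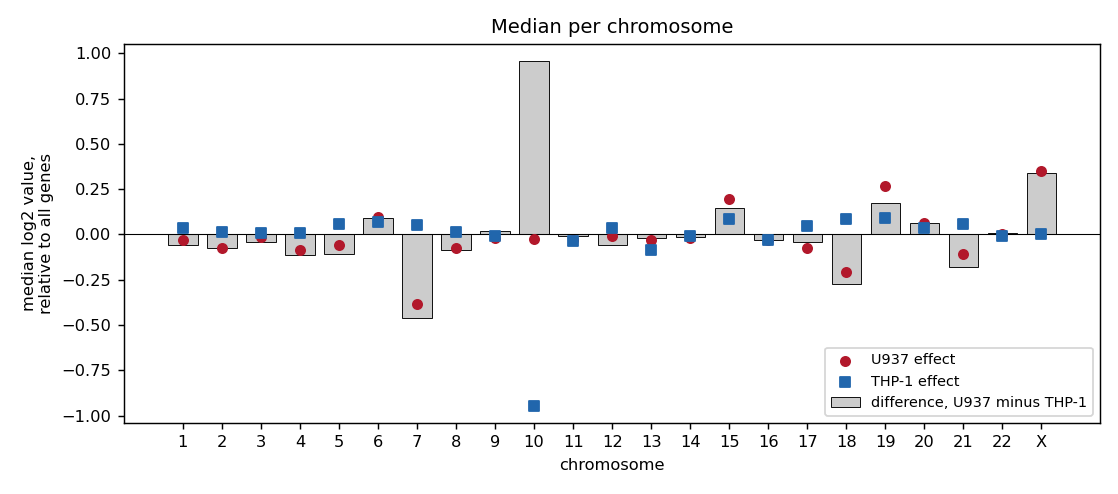
Median difference of DKO effects per chromosome (bars, log2 scale, relative to all genes at a mean log2 CPM of 2 or more), with points for the median U937 and THP-1 effects. Chromosome 10 stands out above 0 with a THP-1 point near -0.95, chromosome 7 below 0 with a U937 point near -0.39.

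Against these shifts, the extremes of each chromosome were far larger. On chromosome 7, KCND2, a voltage-gated potassium channel subunit, was at 1.52, 1.43 and 1.38 CPM in U937 DKO and 0 reads in U937 sgControl, at least 58.0-fold higher, and at 0.327, 0.170 and 0.664 in THP-1 DKO against 14.1, 14.3 and 15 in THP-1 sgControl. GTF2IRD1, a transcription factor gene of the Williams syndrome region, had 2 reads over U937 DKO and 569 over U937 sgControl, with overlapping THP-1 groups. On chromosome 10, ELOVL3, a fatty acid elongase, was at 1.86, 2.17 and 2.47 CPM in U937 DKO, 6.11, 4.75 and 4.75 in U937 sgControl, 0 reads in THP-1 DKO and 1.1, 1.66 and 1.4 in THP-1 sgControl, so that it fell in both lines and by at least 54.4-fold in THP-1. VENTX, a homeobox transcription factor of myeloid cells, rose by 0.97 ± 0.20 in U937. In THP-1 it rose by 4.08 ± 0.61, against the shift of its chromosome there. That effect rests on 4 reads over THP-1 sgControl and 56 over THP-1 DKO. STK31, a kinase gene of chromosome 7 named after its values were seen, had 0 reads in both U937 groups and averaged 607 CPM in THP-1 DKO and 0.133 in THP-1 sgControl, so its U937 effect, and with it the difference, could not be estimated.

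The same contrast of DKO and sgControl was also made in libraries that the comparison does not use, 6 of U937 under a treatment the labels call TPA and 4 of OCI-AML-3, another acute myeloid leukaemia line, each in its own fit. The former are of the line that gave the U937 effect, and whether of the same clone is not stated. Unlike in the compared lines, the SUV39H1 transcript was lower in DKO, by -0.71 ± 0.06 under TPA and -3.35 ± 0.11 in OCI-AML-3. SUV39H2 was lower by -1.01 ± 0.08 and -0.33 ± 0.09. Interferon-stimulated genes had 58 of 58 tested members higher in U937 under TPA (median 4.68, where 34.1% of all genes rose and 36.5% fell), and 14 higher and 16 lower of 53 in OCI-AML-3 (median -0.08, where 24.6% rose and 25.8% fell). SIGLEC1 rose in both, by 9.68 ± 0.22 and 3.69 ± 0.49, while OAS2 rose by 7.76 ± 0.07 under TPA and fell by 0.82 on the log2 scale in OCI-AML-3. MHC class I genes had 20 of 21 higher under TPA, and 8 higher and 5 lower of 21 in OCI-AML-3. TNF fell by 0.83 on the log2 scale under TPA and rose by 0.76 ± 0.07 in OCI-AML-3. Proliferation genes were lower in 39 of 40 under TPA and in 40 of 40 in OCI-AML-3.

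Of the genes outside chromosomes 7 and 10 that rose in untreated U937 and fell in THP-1, 1569 were tested under TPA, with 1106 higher and 243 lower, and 1525 in OCI-AML-3, with 489 higher and 433 lower. Of those that fell in U937 and rose in THP-1, 78 were higher and 587 lower of 833 under TPA, and 26.5% were higher and 28.1% lower of 795 in OCI-AML-3. Genes that rose in both lines were higher in 482 and lower in 102 of 798 under TPA, and higher in 335 and lower in 80 of 733 in OCI-AML-3. Genes that fell in both were lower in 861 and higher in 115 of 1135 under TPA, and lower in 579 and higher in 109 of 1133 in OCI-AML-3. Over all tested genes, 34.1% rose and 36.5% fell under TPA, and 24.6% rose and 25.8% fell in OCI-AML-3. Those that rose in U937 and fell in THP-1 stood at 32.1% higher and 28.4% lower in OCI-AML-3. The genes opposed between U937 and THP-1 thus had near-equal numbers in each direction in OCI-AML-3, as all tested genes had. The shared ones did not.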

How the data were processed

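The deposited values are whole-number read counts per gene, not normalized. Per the submitters' processing notes, reads were handled with fastp 0.23.4, STAR 2.7.11b and Subread 2.0.6 on hg38. Per the file headers, the authors counted with featureCounts against GENCODE 38 by gene name, without a strand option, with the reads of a pair counted singly and reads that map to several places left out. Reads of overlapping or antisense genes therefore cannot be told apart, and genes with near-identical copies lose reads. Groups were taken from the labels.

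All 18 untreated U937 and THP-1 libraries (6 groups of 3, 12 residual degrees of freedom) were fitted in R 4.3.3 with edgeR 4.0.16: default expression filter (18715 genes), trimmed mean of M-values scaling, robust quasi-likelihood test, and a Benjamini-Hochberg adjusted p under 0.05 as the threshold. Effects and their difference come from this fit. Each SE is the absolute log2 fold change divided by the square root of the test's F statistic. It is rough for genes near 0 reads and for effects near 0. Counts were also simulated with no knockout effect except a known change in U937 DKO at some well-expressed genes. The test recovered 83.3%, 100% and 98.5% of these differences at 0.5, 1 and 2 on the log2 scale. It made 16 false calls among 17957 unchanged genes. These rates do not cover genes near 0 reads, shifts shared along a chromosome or data in which most genes move. OCI-AML-3 (16175 genes, 2 residual degrees of freedom) and U937 under TPA (16246 genes, 6 residual degrees of freedom) had their own fits. DESeq2 1.42.0 served as an alternative. Alternatives were size factors, no expression filter, the 12 compared libraries alone, a replicate block, scaling without chromosomes 7 and 10, subtraction of chromosome medians, leaving out each library and, added after seeing the data, a term for a code in the library names.

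The members and the 29 gene lists were chosen with earlier results of these data known, so list counts are descriptions and were given no set test. Named genes are, by rule, the targeted genes, in each list at most 3 members, those of largest called difference (mean log2 CPM of at least 1, outside chromosomes 7 and 10), the extremes outside the lists and on chromosomes 7 and 10, and the leading shared and opposed genes. Cell type markers, ITGAM among them, come from a separate list. Other genes are said to be named after their values were seen. Y-linked genes and XIST were not reported. Fold bounds use a floor of 3 reads over a group. Floors and intervals cover counting error only. Within each group, every pair of replicates differed beyond sampling noise. All deposited columns were assigned to a sample. Some results are not reported here.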

Additional observations from a re-analysis of the deposited data

Results flagged for a closer look

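The results in this section are genes named in the text whose effects passed in both lines with opposite signs and whose difference, U937 effect minus THP-1 effect on the log2 scale, itself passed the test. All groups had 3 libraries, so no single library was tested as standing apart. Interferon-stimulated genes with U937 upward and THP-1 downward were SIGLEC1 (10.24), OAS2 (6.76), IFI6 (5.66), IFITM1 (5.35) and, on chromosome 10, IFIT1 (5.74), IFIT5 (4.57), IFIT2 (4.07) and IFIT3 (3.52). Signalling and sensor genes of the same pattern were IRF7 (4.66) and SAMHD1 (1.63), and NF-kB subunit genes were NFKB1 (0.69) and RELA (0.66). PSMB9 (2.49) and HLA-C (2.39) belong to MHC class I presentation, and CD276 (3.62), CD70 (3.19) and TNFSF9 (2.47) to the immune ligands. CHI3L1 (5.55), CDKN1A (3.34), SLC7A11 (2.10), DNMT3A (1.27) and ADAMTS9 (11.62) also went up in U937 and down in THP-1. KCND2 on chromosome 7 did so with 0 reads in U937 sgControl, at least 58.0-fold higher in U937 DKO.

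The reverse pattern, down in U937 and up in THP-1, held for the progenitor genes FLT3 (-4.62), KIT (-3.99) and ERG (-2.75), for EPB41L3 (-9.58) and UNC5C (-7.62), and for EGR1 (-2.52), CENPE (-1.34), RPL38 (-1.35), LSS (-1.14), HSPA1A (-0.77), ATF4 (-0.66), CGAS (-0.35) and, on chromosome 7, TRIM56 (-1.29). ONECUT2 had a fitted difference of -11.42 that rests on 2 reads in U937 DKO. Genes at 0 reads in U937 DKO were APCDD1, at least 99.8-fold lower there than in U937 sgControl, VCAN, at least 17.6-fold lower, and SLC12A7, at least 11.1-fold lower. The THP-1 groups of CENPE overlapped, so its opposite sign there rests on a small effect.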

How the results depend on the processing

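Of the 10174 genes called in the difference, 89.3% to 99.6% of those tested stayed called with the same sign in each refit, and 0 were called with the opposite sign. Subtraction of chromosome medians gave signs for list members only and no calls. DESeq2's test kept 98.4%, its size factors 98.1%, scaling without chromosomes 7 and 10 kept 99.6%, and the fit without an expression filter 94.4%. Requiring a difference of at least 1 on the log2 scale left 2140 genes higher and 2460 lower. After subtraction of chromosome medians, ribosomal protein genes had 8 members above 0, against 13 before, and proliferation genes 12, against 20. Over all 18715 tested genes the number above 0 fell as well, to 7990 from 9244. The 1 lower MHC class I gene came to 0 without the expression filter and with only the 12 compared libraries. Leaving out 1 library gave 4674 to 5870 genes higher and 4012 to 5138 lower. It gave 3 to 5 immune ligands lower, 2 to 4 JAK-STAT genes lower, 0 to 1 MHC class I genes lower, 0 to 1 MHC class II genes lower and 9 to 17 proliferation genes higher. Interferon-stimulated genes kept 45 to 48 higher and 3 to 6 lower. The median of all differences moved by -0.1064 without U937 sgControl replicate 3 and by -0.1013 without U937 DKO replicate 2, and by at most 0.093 in size otherwise. In U937, deviations of same-numbered libraries had correlations of -0.02 to 0.025, and those of differently numbered ones -0.027 to 0.025. In THP-1 they were 0.033 to 0.117 and -0.071 to 0.035, so the same-numbered pairs there leaned weakly together. Whether the numbers mark a pairing was not tested. With a replicate block, 98.7% of calls stayed, with 5589 higher and 4612 lower. Low counts limit genes near 0 reads in a group, whose fitted fold changes depend on a prior count.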
